A study of Mus musculus with 30 samples.

Results

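The genes described here are 36 genes of macrophages, antigen presentation and inflammation, taken as a list of named genes, which was put together with earlier results of these data known, and found by symbol in the deposited table. All 36 had a row among the 13575 genes of the table, and all 36 were among the 13256 genes tested. Macrophages are resident in the healthy heart, where they clear debris and dying cells. They are recognised by the growth factor receptor CSF1R, by scavenger and Fc receptors, by the complement protein C1q and, in some of them, by MHC class II, which shows peptides from engulfed material to CD4 T cells. Inflammation adds chemokines, which draw in leukocytes, and cytokines such as interleukin-1 beta.

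Hearts were collected at 2 months of age, at zeitgeber time 10 (hours counted from lights on), and the atria were trimmed away. The 6 RNA libraries were 3 labelled CM-RevDKO and 3 labelled control, whose titles call them floxed for the Rev genes. REV-ERBα and REV-ERBβ are nuclear receptors that repress genes of the circadian clock and, in macrophages, also genes of inflammation. CM-RevDKO names a knockout of REV-ERBα and REV-ERBβ in cardiomyocytes, made with floxed alleles of both genes and a Cre that the labels' protocols place behind the alpha myosin heavy chain promoter. That promoter is active in cardiomyocytes, so leukocytes keep both receptors by design. A protocol of the series' other assays gives floxed mice without Cre as controls; where that holds for these libraries too, Cre itself and receptor loss cannot be told apart.

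Nr1d1, which encodes REV-ERBα, measured 55.6, 47.4 and 47.9 FPKM in the libraries labelled CM-RevDKO and 23.9, 22.6 and 15.0 FPKM in those labelled control, so its gene-level value was higher where a knockout is labelled. Values over the whole gene, with exons outside the deleted part and RNA of other cells, check nothing about the deletion. Arntl, a clock gene that REV-ERB represses, had 12.5, 13 and 12.9 FPKM in the libraries labelled CM-RevDKO, against 0.295, 0.145 and 0.0831 FPKM in those labelled control. The group names below are the labels. All 10 cardiomyocyte markers had a row. They summed to 30775, 33157 and 34298 FPKM in CM-RevDKO replicates 1, 2 and 3 and to 31097, 31460 and 33373 FPKM in the controls. Replicate 1 of CM-RevDKO had the lowest sum of the 6 libraries. In these replicates 7, 6 and 4 of the markers lay below all controls, against 25.5%, 29.7% and 26.8% of all genes tested. Above all controls lay 2, 3 and 5 of them, against 39.1%, 27.1% and 28.4% of all genes tested. Of all genes tested, 332 were called (2.5%), 167 higher (1.26%) and 165 lower (1.24%) in the libraries labelled CM-RevDKO, and 118 were higher and 212 lower when libraries were scaled without the mitochondrially encoded genes.

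None of the 36 genes rose or fell in the libraries labelled CM-RevDKO by limma's test (adjusted p of 0.169 to 0.993). A single gene, Ccr2, had an unadjusted p under 0.05, against 16.6% of all genes tested. Ccr2 alone had groups that did not overlap, against 23.1% of all genes. Each gene in the table reached a value of 1 in at least 1 library, and Ccr2 did so only in the libraries labelled CM-RevDKO. The log2 fold change was positive for 25 of the 36, with a median of 0.08, and the median over all genes tested was 0.02. For 35 of the 36 the 95% interval of the fold change lay inside a 2-fold change in either direction on the log2(FPKM + 1) scale, a scale that understates changes of low genes. The intervals reached 0.29 to 0.72 to each side of the estimate (median 0.48), so differences within that span cannot be told from none with these libraries. The gene models of Ccl6, Cd163, Csf1r, Ctss, Cx3cr1, Il1b and Laptm5 overlap a long noncoding RNA or a pseudogene, and without a stated strand setting the reads of such pairs cannot be told apart. In whole heart tissue, fewer cells of a type and less RNA per cell cannot be told apart.

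CM-RevDKO replicate 1 held the highest value of the 6 libraries for 28 of the 36 genes (77.8%), where it was highest for 29.2% of all genes tested. The 36 genes summed to 920, 535 and 547 FPKM in CM-RevDKO replicates 1, 2 and 3 and to 606, 643 and 601 FPKM in control replicates 1, 2 and 3. Replicate 1 of CM-RevDKO was thus above every control library, and replicates 2 and 3 were below every control library. Gene by gene, replicate 1 lay above all controls for 29 of the 36, where 39.1% of all genes tested did so. Replicate 2 lay below all controls for 15 of the 36 and replicate 3 for 20, where 29.7% and 26.8% of all genes tested did so. In the other directions, replicate 1 lay below all controls for 2 of the 36 (25.5% of all genes tested), and replicates 2 and 3 lay above all controls for 7 and 6 (27.1% and 28.4% of all genes tested). The coefficient of variation, the SD as a share of the mean, had a median of 32.4% over the 36 genes in the libraries labelled CM-RevDKO and 12.4% in the control libraries. It was larger in the libraries labelled CM-RevDKO for 30 of the 36 genes, and for 52.0% of all genes tested.

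**Figure D1:**
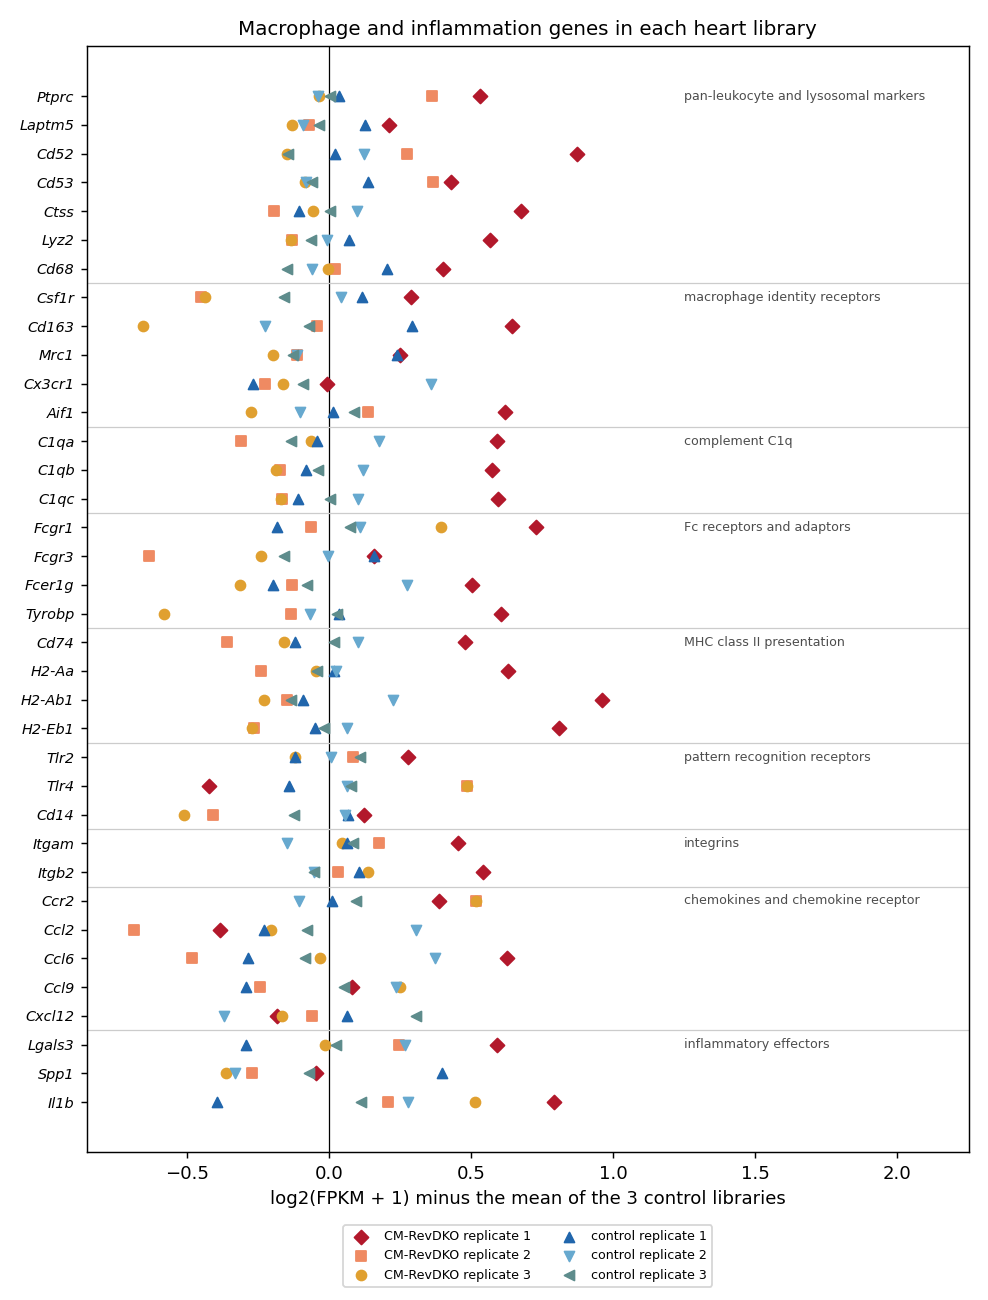
Each row is 1 of the 36 genes, grouped by role, and each symbol is 1 library, placed by its log2(FPKM + 1) minus the mean of the 3 control libraries. CM-RevDKO replicate 1 (dark red diamonds) is the highest of the 6 libraries for 28 of the genes, while CM-RevDKO replicates 2 and 3 lie among or below the controls for most.

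Leaving out CM-RevDKO replicate 1 turned the balance of signs. Of the 35 genes still tested, 24 then had a negative log2 fold change, and the median was -0.14, against 0.08 with all libraries. None passed the test (smallest adjusted p = 0.176, for Csf1r), and 7 of the 35 had an unadjusted p under 0.05, 5 lower and 2 higher, where 13.5% of all genes tested had one in the same fit. The sign of the fold change turned for 13 of the 35 genes. A direction for the list as a whole therefore rested on this library.

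**Figure D2:**
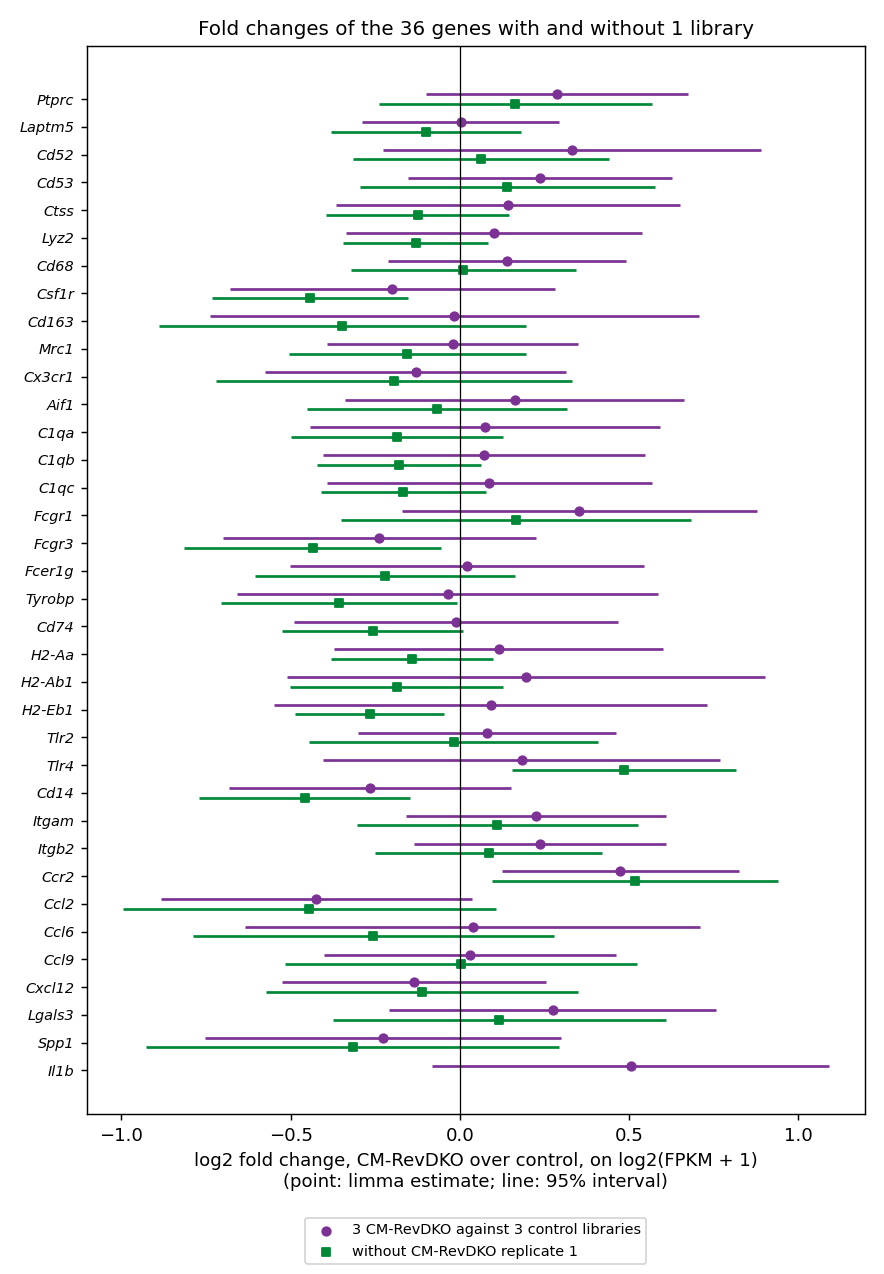
The x axis is the log2 fold change of the libraries labelled CM-RevDKO over the control libraries on log2(FPKM + 1), with its 95% interval, for each of the 36 genes, from all 6 libraries (circles) and without CM-RevDKO replicate 1 (squares; Il1b is then under the minimum mean). With all libraries the interval of Ccr2, which has a row only through its CM-RevDKO values, is the single one that excludes 0. Without replicate 1 the estimates of 24 of 35 genes are negative.

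CM-RevDKO replicate 1 also stood high in some markers of other cells. Its adipocyte, atrial, endothelial and red blood cell sums lay above all controls, and its fibroblast and mural sums did not. The sums are given here as measured facts. The 8 of 9 adipocyte markers with a row summed to 132, 81.4 and 31.5 FPKM in CM-RevDKO replicates 1, 2 and 3 and to 26.3 to 42.2 FPKM in the control libraries. The 9 of 10 atrial markers with a row include the stress hormone gene Nppa. They summed to 1494, 769 and 850 FPKM in these replicates and to 216 to 294 FPKM in the control libraries. Nppa alone measured 813, 589 and 630 FPKM in these replicates and 164, 134 and 143 FPKM in the control libraries. It was called higher by limma's test (adjusted p = 0.000737). Bmp10, a growth factor of the atrium, was listed at 0 in each library but CM-RevDKO replicate 1. Each gene in the table reached a value of 1 in at least 1 library, so Bmp10 has a row only through that replicate. All 12 endothelial markers summed to 1523, 1203 and 1016 FPKM in the CM-RevDKO replicates and to 1091 to 1273 FPKM in the control libraries. Fabp4 alone measured 1020, 759 and 581 FPKM in the CM-RevDKO replicates and 807, 747 and 688 FPKM in the control libraries. All 12 fibroblast markers summed to 1159, 961 and 880 FPKM in them and to 907 to 1171 FPKM in the control libraries. Gene by gene, 7 of these 12 lay above all controls in replicate 1, where 39.1% of all genes tested did so. Their median log2(FPKM + 1) minus the control mean was highest in that replicate (0.38, against -0.13 to 0.26 in the control libraries). The 6 of 8 red blood cell markers with a row summed to 11014, 8872 and 8710 FPKM in the CM-RevDKO replicates and to 5014 to 9014 FPKM in the control libraries. All 8 mural markers summed to 275, 257 and 267 FPKM in them and to 234 to 282 FPKM in the control libraries. Of these 8, Abcc9 alone was called lower by limma's test (adjusted p = 0.0113), as were 1.24% of all genes tested. This call ended when any control library was left out (adjusted p of 0.0505 to 0.0604). The part of these other cells in the values of the 36 genes was not tested.

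**Figure D3:**
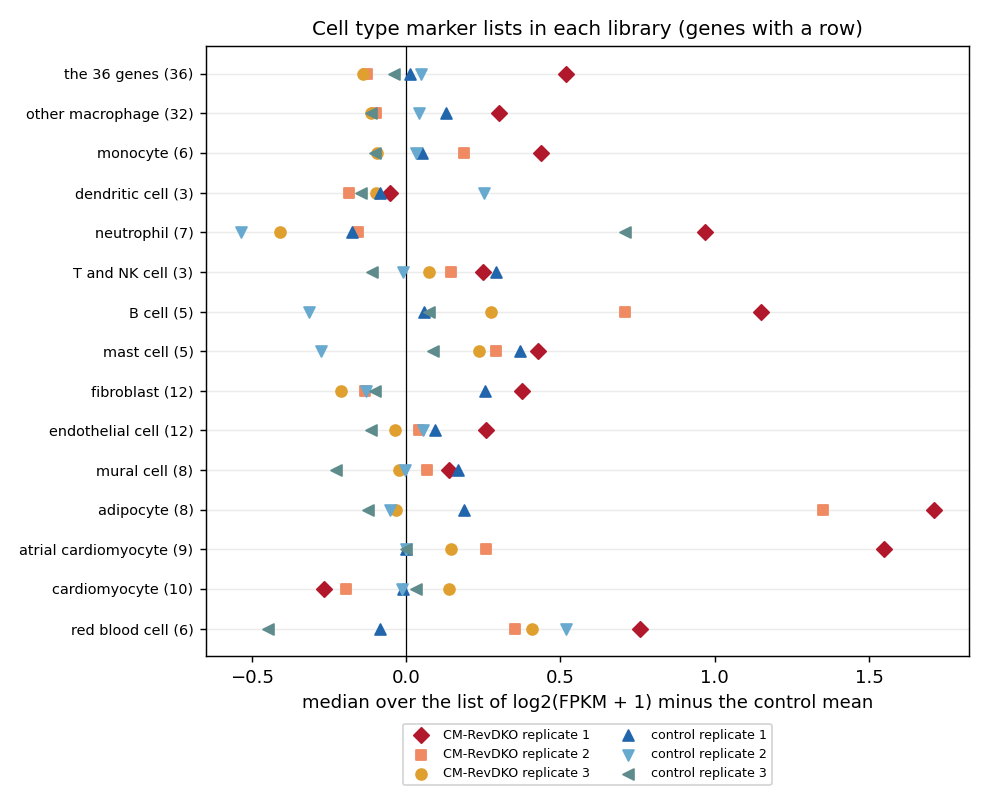
Each row is a list of cell type markers with its number of genes in the table, each symbol is 1 library, and the x axis is the median over the list of log2(FPKM + 1) minus the control mean. CM-RevDKO replicate 1 is the highest library for the 36 genes (0.52) and for the adipocyte (1.71) and atrial (1.55) lists. It is also highest for the further macrophage (0.30), monocyte (0.44), neutrophil (0.97), B cell (1.15) and mast cell (0.43) lists. The same holds for the fibroblast (0.38), endothelial (0.26) and red blood cell (0.76) lists. It is not highest for the dendritic cell, T and NK cell, mural and cardiomyocyte lists. CM-RevDKO replicate 2 is also high for the adipocyte list (1.35).

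None of the 7 genes of leukocytes in general and of their lysosomes passed the test. Lyz2, the lysozyme of myeloid cells, was the most abundant of the 36 per length, at 154, 95 and 94.7 FPKM in the libraries labelled CM-RevDKO and 109, 103 and 99.3 FPKM in the control libraries. The groups overlapped, with CM-RevDKO replicate 1 above and replicates 2 and 3 below all controls (log2 fold change 0.10, SE 0.19, adjusted p = 0.839). Its close paralog Lyz1, which can share reads with it, ranged over 0.556 to 1.77 FPKM in the CM-RevDKO libraries and 0.383 to 0.515 FPKM in the control libraries.

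Ctss, the cathepsin that trims the MHC class II invariant chain, had 20.5, 10.7 and 11.9 FPKM in the libraries labelled CM-RevDKO and 11.5, 13.4 and 12.5 FPKM in the control libraries. It followed the pattern of Lyz2, with a single high library (log2 fold change 0.14, adjusted p = 0.80). Ptprc, which encodes the pan-leukocyte phosphatase CD45, had 3.06, 2.62 and 1.74 FPKM in the libraries labelled CM-RevDKO and 1.88, 1.73 and 1.82 FPKM in the control libraries. Here CM-RevDKO replicates 1 and 2 were above all controls and replicate 3 was among them. The difference was 0.29 on the log2 scale (SE 0.17, adjusted p = 0.441). Cd52, a small glycoprotein of the leukocyte surface, had 16.0, 10.2 and 7.37 FPKM in the libraries labelled CM-RevDKO and 8.41, 9.10 and 7.39 FPKM in the control libraries, with the same 2 libraries high and replicate 3 lowest of all (adjusted p = 0.538). The tetraspanin gene Cd53 and the lysosomal genes Cd68 and Laptm5 had adjusted p of 0.530, 0.697 and 0.993. The 7 genes of this group were each highest in CM-RevDKO replicate 1, and their fold changes were all positive, with a median of 0.14.

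Of the 5 receptors and markers of macrophage identity, 1 had a positive log2 fold change and none passed the test. Csf1r, the receptor for the macrophage growth factor CSF1, had 12.9, 7.32 and 7.39 FPKM in the libraries labelled CM-RevDKO and 11.3, 10.7 and 9.17 FPKM in the control libraries. CM-RevDKO replicate 1 was the highest library and replicates 2 and 3 the lowest, so the groups overlapped (log2 fold change -0.20, SE 0.21, adjusted p = 0.683). Without replicate 1 the log2 fold change was -0.44, with an adjusted p of 0.176.

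Cd163, a scavenger receptor for haemoglobin bound to haptoglobin, had 8.80, 5.10 and 2.99 FPKM in the libraries labelled CM-RevDKO and 6.68, 4.37 and 4.98 FPKM in the control libraries. Its values in the libraries labelled CM-RevDKO ranged both above and below the controls, and its interval, -0.74 to 0.71, was the widest of the 36 (adjusted p = 0.989). Mrc1, the mannose receptor CD206, had 8.16, 6.12 and 5.72 FPKM in the libraries labelled CM-RevDKO and 8.10, 6.12 and 6.06 FPKM in the control libraries, almost the same spread in each group (log2 fold change -0.02, adjusted p = 0.970). Aif1, which encodes the calcium-binding protein IBA1, averaged 4.34 ± 1.66 FPKM in the CM-RevDKO libraries and 3.63 ± 0.306 FPKM in the control libraries (SD, n = 3 each; adjusted p = 0.764). Cx3cr1, the receptor for fractalkine, averaged 1.31 ± 0.183 FPKM in the CM-RevDKO libraries and 1.56 ± 0.593 FPKM in the control libraries (SD, n = 3 each; adjusted p = 0.789), and was highest in control replicate 2.

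C1q, which starts the classical complement pathway and tags debris for engulfment, is built of 3 kinds of chain, encoded side by side on chromosome 4 (C1qa at chr4:136895916-136898844, C1qc at chr4:136889801-136892936 and C1qb at chr4:136880126-136886200, mm10). C1qa had 80.4, 42.6 and 50.7 FPKM in the libraries labelled CM-RevDKO and 51.4, 59.9 and 48.3 FPKM in the control libraries. C1qb had 59.7, 35.2 and 34.9 FPKM in the libraries labelled CM-RevDKO and 37.6, 43.4 and 38.7 FPKM in the control libraries. C1qc had 56.4, 32.9 and 32.8 FPKM in the libraries labelled CM-RevDKO and 34.2, 39.8 and 37.1 FPKM in the control libraries. The 3 genes kept the same order in every library, and each had CM-RevDKO replicate 1 high and control replicate 2 next. The log2 fold changes were 0.07, 0.07 and 0.09 for C1qa, C1qb and C1qc (adjusted p = 0.908, 0.904 and 0.880), and without CM-RevDKO replicate 1 they were -0.19, -0.18 and -0.17. The ratio of C1qb to C1qa was 0.742, 0.827 and 0.688 in the libraries labelled CM-RevDKO and 0.731, 0.723 and 0.803 in the control libraries, so the chains varied less against each other than each did between libraries.

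**Figure D4:**
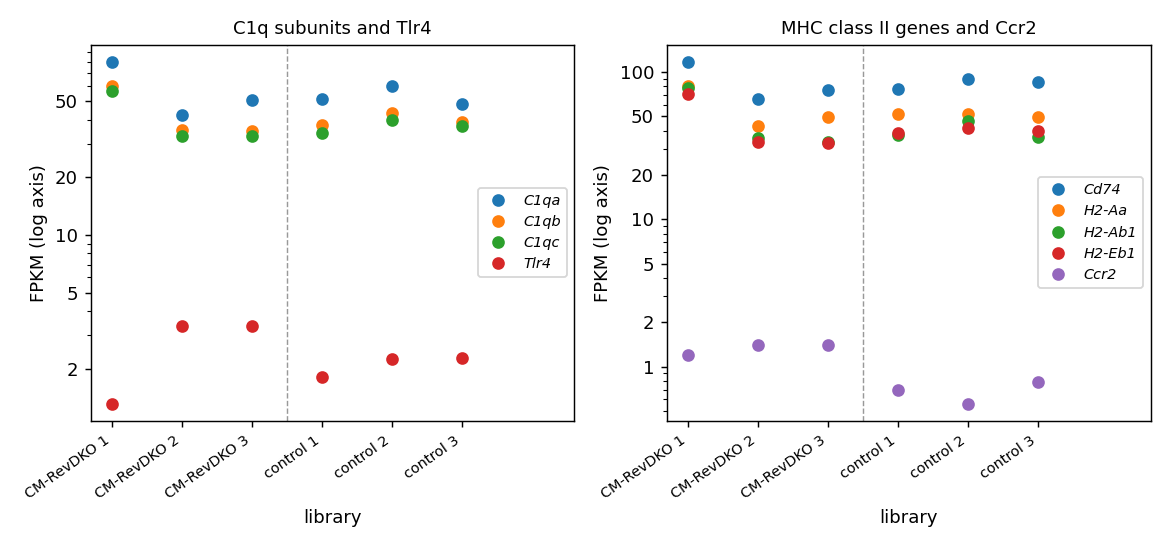
Each point is the FPKM of a gene in 1 library on a log axis, with the 3 CM-RevDKO libraries left of the 3 control libraries. The C1q and MHC class II genes share a high value in CM-RevDKO replicate 1 and lie close together elsewhere. Tlr4 is lowest in that library (1.31 FPKM). Ccr2 is the gene whose CM-RevDKO values (1.20 to 1.41 FPKM) all lie above its control values (0.563 to 0.792 FPKM). It has a row only through its CM-RevDKO values, as each gene in the table reached 1 in at least 1 library.

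The MHC class II group showed the same library pattern at a similar level. H2-Aa encodes the alpha chain of the molecule I-A, H2-Ab1 its beta chain and H2-Eb1 the beta chain of I-E, all on chromosome 17 (H2-Aa at chr17:34282744-34287823, mm10), and Cd74 encodes the invariant chain that guards the peptide groove. H2-Aa had 80.2, 43.4 and 49.9 FPKM in the libraries labelled CM-RevDKO and 52.1, 52.3 and 49.9 FPKM in the control libraries. H2-Ab1 had 78.2, 35.8 and 33.8 FPKM in the libraries labelled CM-RevDKO and 37.2, 46.5 and 36.1 FPKM in the control libraries. H2-Eb1 had 71.1, 33.3 and 33.1 FPKM in the libraries labelled CM-RevDKO and 38.8, 42.1 and 39.7 FPKM in the control libraries. For each, CM-RevDKO replicate 1 was far above all controls and replicates 2 and 3 were below them, for H2-Aa in replicate 3 only just. Cd74 had 118, 65.4 and 75.2 FPKM in the libraries labelled CM-RevDKO and 77.2, 90.3 and 85.1 FPKM in the control libraries, the same order of libraries within the CM-RevDKO group as H2-Aa. The log2 fold changes of H2-Aa, H2-Ab1, H2-Eb1 and Cd74 were 0.12, 0.20, 0.09 and -0.01 (adjusted p = 0.837, 0.802, 0.908 and 0.988). Without CM-RevDKO replicate 1 they were -0.14, -0.19, -0.27 and -0.26, at adjusted p of 0.277 to 0.619.

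The start regions of the C1q and MHC class II genes are shown because these genes varied together between libraries. A RefSeq window of 250 bases before to 50 bases after a start (GRCm38.p6) was matched for 26 of the 36 genes. Those of 4 genes of these groups are printed 5′ to 3′ on the gene's strand. The C1qc window is set on a start inside the C1qc coordinates given above, not at their end. Capitals mark, in the C1q genes, GAGGAA or its reverse complement, the core that the myeloid factor PU.1 binds, and in the H2 genes ATTGG or its reverse complement, the core of the Y-box of MHC class II promoters.
C1qb, chr4:136886151-136886450, minus strand: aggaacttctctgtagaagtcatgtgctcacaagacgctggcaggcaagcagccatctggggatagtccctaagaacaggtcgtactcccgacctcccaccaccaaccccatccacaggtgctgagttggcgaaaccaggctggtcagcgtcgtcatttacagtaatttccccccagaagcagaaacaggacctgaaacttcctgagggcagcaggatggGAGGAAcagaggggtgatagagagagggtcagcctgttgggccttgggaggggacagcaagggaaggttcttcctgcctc
C1qc, chr4:136892865-136893164, minus strand: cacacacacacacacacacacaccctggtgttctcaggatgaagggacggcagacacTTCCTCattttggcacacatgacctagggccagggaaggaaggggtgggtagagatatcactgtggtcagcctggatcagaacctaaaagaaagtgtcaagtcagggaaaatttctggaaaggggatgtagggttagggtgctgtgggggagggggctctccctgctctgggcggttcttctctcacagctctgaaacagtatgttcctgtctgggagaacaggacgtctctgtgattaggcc
H2-Aa, chr17:34287774-34288073, minus strand: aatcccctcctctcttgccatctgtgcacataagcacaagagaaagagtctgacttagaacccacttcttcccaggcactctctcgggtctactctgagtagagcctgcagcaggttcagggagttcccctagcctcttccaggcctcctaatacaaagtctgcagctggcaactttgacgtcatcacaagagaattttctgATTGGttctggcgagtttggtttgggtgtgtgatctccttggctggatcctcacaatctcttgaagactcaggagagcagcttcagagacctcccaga
H2-Eb1, chr17:34305617-34305916, plus strand: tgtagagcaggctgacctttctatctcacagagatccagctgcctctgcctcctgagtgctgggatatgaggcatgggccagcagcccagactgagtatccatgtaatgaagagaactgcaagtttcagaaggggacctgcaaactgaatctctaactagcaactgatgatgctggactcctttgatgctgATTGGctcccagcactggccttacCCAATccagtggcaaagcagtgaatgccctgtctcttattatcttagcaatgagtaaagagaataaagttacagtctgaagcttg
Counted from the start on which each window is set, the match began at position -30 in C1qb and -193 in C1qc, at -48 in H2-Aa and at -59 and -35 in H2-Eb1. The 26 genes had 29 windows. On either strand GAGGAA stood in 28.3% of all 32851 windows and in 14 of these 29, from 13 genes. ATTGG stood in 37.4% of all windows and in 10 of these 29, from 10 genes. The extended REV-ERB and ROR element, an A/T-rich stretch followed by GGTCA and searched on both strands, stood in 0.606% of all windows and in none of the 29 windows of the 26 genes. The nuclear receptor core AGGTCA, which can overlap it, stood in 16.3% of all windows and in 6 of the 29 windows, from 6 genes. A match is a run of letters and no evidence of binding.

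Fc receptors bind the tail of antibodies and signal through adaptors with activation motifs. Tyrobp, the adaptor also called DAP12, had 32.7, 19.2 and 13.8 FPKM in the libraries labelled CM-RevDKO and 21.6, 20.1 and 21.6 FPKM in the control libraries. The control values were almost level, and those of CM-RevDKO lay on both sides of them (log2 fold change -0.03, SE 0.27, adjusted p = 0.969). Fcer1g, the common gamma chain of Fc receptors, had 17.1, 10.7 and 9.26 FPKM in the libraries labelled CM-RevDKO and 10.1, 14.4 and 11.1 FPKM in the control libraries (adjusted p = 0.979). Fcgr3, a low-affinity receptor for immunoglobulin G, had 11.8, 6.37 and 8.70 FPKM in the libraries labelled CM-RevDKO and 11.8, 10.4 and 9.26 FPKM in the control libraries. CM-RevDKO replicates 2 and 3 were the lowest libraries (log2 fold change -0.24, adjusted p = 0.601). Its paralog Fcgr2b, an inhibitory receptor that can share reads with it, had overlapping groups (adjusted p = 0.795). It measured 8.56, 6.21 and 4.09 FPKM in the libraries labelled CM-RevDKO and 4.49, 6.34 and 5.31 FPKM in the control libraries. Fcgr1, the high-affinity receptor, was low, at 2.12, 0.803 and 1.47 FPKM in the libraries labelled CM-RevDKO and 0.659, 1.03 and 0.979 FPKM in the control libraries (adjusted p = 0.485).

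None of the receptors that sense microbial products passed the test, and Tlr4 had another library order than C1q. Tlr4, the receptor for bacterial lipopolysaccharide, had 1.31, 3.34 and 3.34 FPKM in the libraries labelled CM-RevDKO and 1.81, 2.24 and 2.27 FPKM in the control libraries. It was the only 1 of the 36 genes whose lowest value lay in CM-RevDKO replicate 1, while replicates 2 and 3 were above all controls (log2 fold change 0.18, SE 0.25, adjusted p = 0.772). Without replicate 1 the log2 fold change was 0.49, with an adjusted p of 0.195. Cd14, the co-receptor of TLR4, went the other way, at 4.36, 2.71 and 2.46 FPKM in the libraries labelled CM-RevDKO and 4.15, 4.12 and 3.52 FPKM in the control libraries. Its log2 fold change was -0.26 (adjusted p = 0.509), and -0.46 without replicate 1 (adjusted p = 0.192). Tlr2, the receptor for bacterial lipoproteins, had 1.58, 1.26 and 0.960 FPKM in the libraries labelled CM-RevDKO and 0.961, 1.14 and 1.3 FPKM in the control libraries, with full overlap (adjusted p = 0.857). The leukocyte integrin chains Itgam and Itgb2, which pair as the complement receptor CR3, averaged 1.49 ± 0.367 and 2.76 ± 0.724 FPKM in the libraries labelled CM-RevDKO and 1.12 ± 0.184 and 2.15 ± 0.202 FPKM in the control libraries (SD, n = 3 each; adjusted p = 0.546 and 0.506).

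Among the chemokines and the chemokine receptor, none passed the test. Ccr2, the receptor that brings monocytes out of the bone marrow and into tissue, had 1.20, 1.41 and 1.41 FPKM in the libraries labelled CM-RevDKO and 0.692, 0.563 and 0.792 FPKM in the control libraries. The groups did not overlap, as was so in the higher direction for 12.6% of all genes tested. The difference was 0.48 on the log2 scale (SE 0.15, 95% interval 0.13 to 0.82), its unadjusted p was 0.0142 and its adjusted p 0.169, so it did not pass the test. The estimate was 0.42 to 0.52 with each library left out in turn, at adjusted p of 0.257 to 0.363. All 6 values are under 2 FPKM, where an FPKM rests on few fragments. Each gene in the table reached a value of 1 in at least 1 library. Ccr2 did so only in the libraries labelled CM-RevDKO, so it has a row only through the group where it is high.

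Ccl2, the main ligand of CCR2, had 1.29, 0.859 and 1.6 FPKM in the libraries labelled CM-RevDKO and 1.55, 2.70 and 1.83 FPKM in the control libraries. The groups overlapped at a single library, CM-RevDKO replicate 3 (log2 fold change -0.42, SE 0.20, adjusted p = 0.337). Cxcl12, a chemokine made by stromal and endothelial cells that retains leukocytes, was the most abundant chemokine of the list, at 25.1, 27.4 and 25.4 FPKM in the libraries labelled CM-RevDKO and 29.9, 21.9 and 35.7 FPKM in the control libraries. Its spread was larger in the controls, and CM-RevDKO replicate 1 did not stand out (log2 fold change -0.14, adjusted p = 0.743). Ccl6 had 14.7, 6.29 and 8.98 FPKM in the libraries labelled CM-RevDKO and 7.35, 12.2 and 8.60 FPKM in the control libraries, and Ccl9 ranged over 2.15 to 3.42 FPKM in the CM-RevDKO libraries and 2.04 to 3.38 FPKM in the control libraries (adjusted p = 0.968 and 0.961). These neighbouring genes encode chemokines made by myeloid cells.

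The inflammatory effectors were near the floor of the table. Il1b, which encodes the cytokine interleukin-1 beta, had 1.27, 0.517 and 0.873 FPKM in the libraries labelled CM-RevDKO and 0.594 and 0.418 FPKM in control replicates 2 and 3, and it was listed at 0 in control replicate 1. The groups overlapped, and the log2 fold change of 0.51 had an interval of -0.08 to 1.09 (adjusted p = 0.368). Spp1, which encodes the matrix protein osteopontin, had 0.890, 0.618 and 0.520 FPKM in the libraries labelled CM-RevDKO and 1.57, 0.554 and 0.860 FPKM in the control libraries (log2 fold change -0.23, adjusted p = 0.672). Lgals3, which encodes galectin-3, a lectin of activated macrophages, had 3.11, 2.24 and 1.71 FPKM in the libraries labelled CM-RevDKO and 1.23, 2.28 and 1.77 FPKM in the control libraries (log2 fold change 0.27, adjusted p = 0.558). None of the 3 passed the test. Each gene in the table reached a value of 1 in at least 1 library. Il1b did so only in CM-RevDKO replicate 1 and Spp1 only in control replicate 1, so each has its row through its highest library.

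Lists of related genes gave few calls. Of all genes tested, 2.5% were called and 16.6% had an unadjusted p under 0.05. None of 32 further macrophage genes, 18 genes of MHC class I presentation, 12 further genes of the MHC class II pathway, 6 monocyte, 3 dendritic cell, 7 neutrophil, 3 T and NK cell or 5 mast cell markers passed limma's test, and 3, 1, 1, 0, 0, 0, 1 and 0 of them had an unadjusted p under 0.05. Of the macrophage genes, 19 were highest in CM-RevDKO replicate 1, as were 11 of the MHC class I genes. Apoe, a lipid carrier that macrophages secrete, had 440, 176 and 245 FPKM in the libraries labelled CM-RevDKO and 282, 316 and 202 FPKM in the control libraries (adjusted p = 0.981). B2m, the light chain of MHC class I, had 347, 191 and 229 FPKM in the libraries labelled CM-RevDKO and 230, 219 and 255 FPKM in the control libraries (adjusted p = 0.893). Both were highest in CM-RevDKO replicate 1, with overlapping groups. The chaperone gene Calr, the lysosomal reductase gene Ifi30, the lysosomal protease gene Lgmn and the selenium carrier Sepp1 had log2 fold changes of -0.24, -0.04, -0.19 and -0.25 (adjusted p = 0.433, 0.956, 0.563 and 0.289). Of the monocyte list, Ace, the angiotensin-converting enzyme, and Fn1, which encodes fibronectin, had log2 fold changes of 0.06 and 0.24 (adjusted p = 0.871 and 0.724). The dendritic cell genes Zbtb46, a transcription factor, and Clec9a, a receptor for dead cells, had differences of -0.11 and -0.08 (adjusted p = 0.651 and 0.871). Thy1, a surface glycoprotein of T cells and of some stromal cells, and Cd247, the zeta chain of the T cell receptor complex, had differences of 0.31 and -0.04 (adjusted p = 0.497 and 0.958). The mast cell genes Kit, the receptor for stem cell factor, and Mcpt4, a chymase, had differences of 0.11 and 0.44 (adjusted p = 0.827 and 0.426). None of these genes had groups that stood apart, and Ifi30, Lgmn, Ace, Fn1, Thy1 and Mcpt4 were each highest in CM-RevDKO replicate 1.

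Of 19 cytokines and cytokine receptors, 2 fell and none rose, where 1.24% and 1.26% of all genes tested did so. An unadjusted p under 0.05 was found for 5 of the 19, against 16.6% of all genes tested. The groups did not overlap for 5 in the lower and 2 in the higher direction, against 10.5% and 12.6% of all genes tested. Il10rb, a chain of the receptor for interleukin-10, fell to 32.3, 35.4 and 37.1 FPKM in the libraries labelled CM-RevDKO, against 65.5, 64.3 and 59.2 FPKM in the control libraries. The groups lay far apart, CM-RevDKO replicate 1 was among its own group, and leaving out any 1 library kept the call (log2 fold change -0.83, SE 0.09, adjusted p = 0.00519, and 0.0140 to 0.0389 with a library left out). Il15, a cytokine that sustains NK and memory T cells, fell to 5.97, 6.05 and 6.04 FPKM in the libraries labelled CM-RevDKO, against 8.99, 9.34 and 10.7 FPKM in the control libraries. The difference was -0.60 on the log2 scale (SE 0.10, adjusted p = 0.0276), and the call ended when any of the 6 libraries was left out (adjusted p of 0.0611 to 0.103). The median of the list was 0.02.

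Of 5 chemokine receptors, 1 fell, where 1.24% of all genes tested did so. Cxcr7, a scavenging receptor for CXCL12, fell to 15.2, 12.4 and 14.5 FPKM in the libraries labelled CM-RevDKO, against 19.6, 22.1 and 20.7 FPKM in the control libraries (log2 fold change -0.54, SE 0.11, adjusted p = 0.0489). This call too ended when any library was left out (adjusted p of 0.0673 to 0.154), with a pseudocount of 0.1 (0.0504) and without the intensity trend (0.0770).

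Of 19 NF-kB factors and targets, 1 rose, where 1.26% of all genes tested did so. Tnfaip2, which tumour necrosis factor induces, rose to 12.3, 11 and 13.3 FPKM in the libraries labelled CM-RevDKO, against 4.61, 5.0 and 6.02 FPKM in the control libraries (log2 fold change 1.09, SE 0.12, adjusted p = 0.00537). Leaving out any 1 library kept the call (adjusted p of 0.0153 to 0.0321). The NF-kB list had a median of 0.06, and its other 18 members did not pass.

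Of 5 B cell markers, 1 rose, where 1.26% of all genes tested did so. Igkc, the constant segment of the immunoglobulin kappa chain, rose to 21.1, 20.7 and 18.1 FPKM in the libraries labelled CM-RevDKO, against 9.93, 8.78 and 7.63 FPKM in the control libraries (log2 fold change 1.10, SE 0.12, adjusted p = 0.00472; 0.0132 to 0.0267 with a library left out). The list summed to 42.0, 36.8 and 27.9 FPKM in the CM-RevDKO replicates and to 14.5 to 19.5 FPKM in the control libraries. Igkc is part of these sums and a large share of them, so they are no separate result. In CM-RevDKO replicates 1, 2 and 3, 4, 4 and 2 of the 5 markers lay above all controls. Of all genes tested, 39.1%, 27.1% and 28.4% did so.

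**Figure D5:**
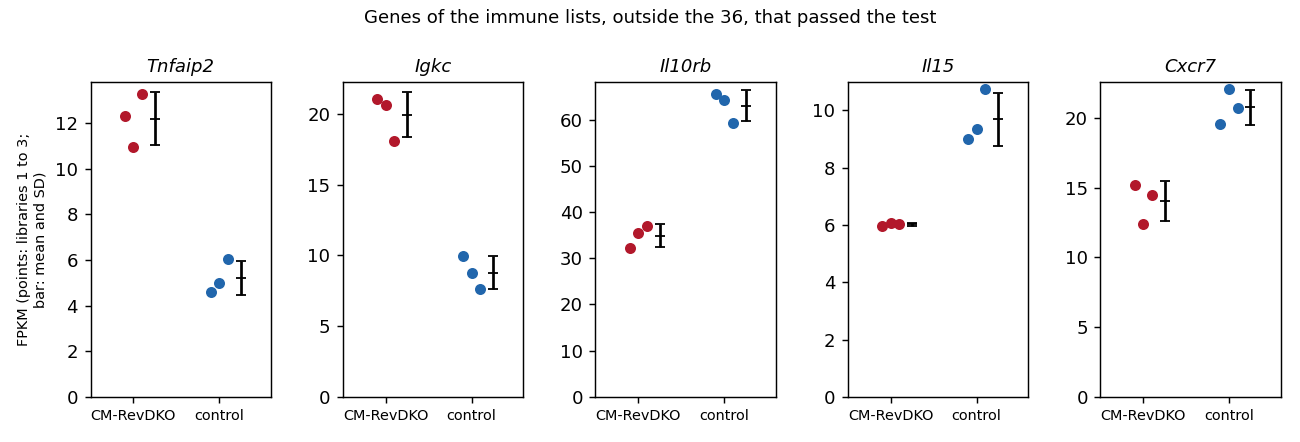
Points are FPKM in single libraries for the 5 genes of the immune lists, outside the 36, that passed limma's test, with the mean and SD of each group beside them and axes that start at 0. Tnfaip2 and Igkc are higher and Il10rb, Il15 and Cxcr7 lower in all 3 CM-RevDKO libraries than in any control library.

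None of 30 interferon-response genes, 18 genes of Toll-like receptor signalling, 7 inflammasome genes, 17 complement genes outside C1q or 16 further chemokines passed the test. Of them, 3, 2, 0, 2 and 0 had an unadjusted p under 0.05, against 16.6% of all genes tested. The Toll-like receptor signalling genes Irak1, a kinase, and Irf3, a transcription factor, had log2 fold changes of 0.02 and 0.05, and the inflammasome adaptor gene Pycard one of -0.06 (adjusted p = 0.967, 0.846 and 0.889). Iigp1, an interferon-induced GTPase, measured 18.6, 13.5 and 10.5 FPKM in the libraries labelled CM-RevDKO and 26.4, 32.6 and 24.3 FPKM in the control libraries. The groups did not overlap, as was so in the lower direction for 10.5% of all genes tested, and the log2 fold change of -0.95 did not pass (SE 0.20, adjusted p = 0.0655). Bst2, an antiviral membrane protein, measured 42.3, 30.5 and 29.4 FPKM in the libraries labelled CM-RevDKO and 28.1, 23.9 and 26.2 FPKM in the control libraries (adjusted p = 0.295), again with no overlap, and did not pass. The interferon list had a median of -0.10, and CM-RevDKO replicates 2 and 3 were below all controls for 19 and 18 of its 30 genes, against 29.7% and 26.8% of all genes tested. Replicate 1 was the highest library for 17 of them, against 29.2% of all genes tested.

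In the complement and chemokine lists, Serping1, Pf4 and Cxcl14 had overlapping groups. Serping1, the inhibitor of the protease complex that C1q activates, had 57.3, 49.4 and 51.5 FPKM in the libraries labelled CM-RevDKO and 57.5, 64.2 and 51.4 FPKM in the control libraries (adjusted p = 0.627). Its highest value lay in control replicate 2. Pf4, a chemokine of platelets that macrophages also make, had 43.3, 39.3 and 32.0 FPKM in the libraries labelled CM-RevDKO and 42.0, 33.7 and 33.7 FPKM in the control libraries (adjusted p = 0.876). The chemokine Cxcl14 had 12.7, 10.1 and 12.9 FPKM in the libraries labelled CM-RevDKO and 8.11, 12.1 and 9.49 FPKM in the control libraries (log2 fold change 0.25, adjusted p = 0.482). The complement list had a median of 0.12 and the list of further chemokines one of -0.06, beside 0.02 for all genes tested.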

How the data were processed

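RNA was measured in 6 mouse heart libraries. The values deposited by the authors, for 13575 genes in each library, were read here as FPKM, fragment counts scaled for transcript length and sequencing yield; the header names no unit, and TPM was not told apart from it. The submitters' processing notes name HISAT2, StringTie and mm10. Annotation and strand setting: not given in the sources used here. Each gene in the table reached a value of 1 in at least 1 library. Depth is unknown, so no counting interval is given. Values were analysed as log2(FPKM + 1). Genes averaging 0.5 or more (13256) entered a limma 3.58.1 fit (R 4.3.3) on group alone with an intensity trend. Its two-sided p-values were given a Benjamini-Hochberg adjustment over all these genes, with calls at 0.05. Each adjusted p comes from limma. The fit was tested on simulated data. The replicates are numbered samples with no stated animal, so p-values measure the spread between these libraries. No libraries held identical values. The 36 genes, the other lists and the alternatives were chosen with earlier results of these data known. All 36 genes are named. From the other immune lists, genes past the test are named and, where none passed, the pair with the highest mean; a gene of the complement list is not reported here. Lists of other heart cells are given by their sums. Where a symbol had several rows, the row with the highest mean was used. Coordinates and promoter windows come from RefSeq on GRCm38.p6, which is mm10. The other 24 samples of the series, from ChIP and Cut&Run, were not analysed here.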

Additional observations from a re-analysis of the deposited data

How the results depend on the processing

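None of the 36 genes passed the test in any of the alternatives: a pseudocount of 0.1, no filter, a mean of at least 5 (20 of the genes tested), quantile normalization, scaling without mitochondrially encoded genes, limma without the trend, the replicate block, each library left out in turn, and, chosen after seeing the data, CM-RevDKO replicate 3 alone against the controls, which assumes that it varies like the controls. The smallest adjusted p of any member was 0.0836, for Ccr2 without the trend. The median over the members was 0.02 to 0.09 under the alternatives that keep all libraries, -0.14 to 0.21 with a library left out and -0.15 for CM-RevDKO replicate 3 alone. Over all genes, 332 calls became 114 to 323 with a library left out (71 to 189 higher and 43 to 134 lower) and 28 for CM-RevDKO replicate 3 alone (15 higher, 13 lower). Whether the replicate numbers pair the libraries is not stated. The deviations of same-numbered libraries correlated at -0.037, -0.0642 and 0.0933 over genes, and those of differently numbered libraries at -0.0885 to 0.109. With 3 libraries in each group these values cannot exclude a pairing. With the replicate block 115 genes were called, 69 higher and 46 lower. Il15, Cxcr7 and Abcc9 were not among them (adjusted p = 0.0864, 0.147 and 0.0552). With CM-RevDKO replicate 3 alone, Tnfaip2, Igkc and Il10rb also missed the threshold (adjusted p = 0.086, 0.143 and 0.115). The causes of these moves were not tested. Depth is unknown, and 9 of the 36 genes averaged under 2 FPKM in the control libraries.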

Other observations

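S100a9, a calcium-binding protein of neutrophils and monocytes, measured 29.5, 10.1 and 6.49 FPKM in the libraries labelled CM-RevDKO and 6.82, 4.54 and 14.9 FPKM in the control libraries, and its partner S100a8 measured 22.1, 6.70 and 5.83 FPKM in the CM-RevDKO libraries and 5.94, 4.40 and 11.8 FPKM in the control libraries. CM-RevDKO replicate 1 and control replicate 3 were high for both (adjusted p = 0.627 and 0.709). The 7 of 14 neutrophil markers with a row summed to 65.1, 21.7 and 15.7 FPKM in the CM-RevDKO replicates and to 14.1 to 38.4 FPKM in the control libraries; Camp was listed at 0 in CM-RevDKO replicate 3 and control replicate 2, and Ngp in CM-RevDKO replicate 3. Control replicate 3 was not high for the C1q or MHC class II genes given above. The inflammasome regulator Txnip, an inhibitor of thioredoxin, measured 84.4, 42.0 and 72.8 FPKM in the libraries labelled CM-RevDKO and 153, 64.2 and 60.4 FPKM in the control libraries, with control replicate 1 high (adjusted p = 0.670).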
